A study of Mus musculus with 7 samples.

Results

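The genes described here encode the proteins of the cytosolic ribosome, measured in sorted mouse thymocytes. They were chosen by symbol: Rpl or Rps followed by a digit, or Rplp0, Rplp1, Rplp2 and Rpsa, leaving out the Rps6k kinases and pseudogenes. Of 18193 genes with a probe set that carries a single symbol, 50 met the rule, and 45 of them passed the intensity filter (82 or more in at least 2 arrays) and were tested among 10874 genes. A gene is represented by its probe set of highest mean.

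The series holds 7 expression microarrays of thymic T cells from mice of C57BL/6J background, 4 to 6 weeks old, each array made from pooled animals. Stage 1 natural killer T (NKT) cells, sorted as CD1d tetramer+ CD24low CD44- NK1.1-, came from Valpha14 T cell receptor transgenic mice (2 arrays). The same sort was made from Valpha14 transgenic mice that also carry Luxoid, a mutation that leaves them deficient in PLZF, the transcription factor encoded by Zbtb16 that directs NKT cell development (3 arrays). CD4 single-positive thymocytes (CD4SP), the conventional helper T lineage, came from wild-type mice without the transgene (2 arrays). A contrast of either NKT group with CD4SP therefore crosses cell type and transgene, whose parts cannot be told apart. The promoter that drives the transgene is not given in the sources used here. The cell type field of the CD4SP arrays repeats the NKT sort, and the titles and source names, which say CD4SP, were followed.

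The cytosolic ribosome has a small subunit, which reads the messenger RNA, and a large subunit, which forms the peptide bond. Proteins named Rps belong to the small subunit, proteins named Rpl to the large one, and the Rplp proteins form the stalk that recruits elongation factors. Their messenger RNAs are among the most abundant of a cell, and most begin with a pyrimidine tract at the 5′ end (the TOP motif) through which mTORC1 controls their translation. T cells make ribosomes at a high rate when they enter growth and division. Loss of Rpl22 is known to impair the development of alpha-beta T cells, and Rpl22l1 is its paralogue.

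Of the 45 tested genes, 41 encode standard subunits of the ribosome: 19 of the large subunit, 20 of the small subunit and 2 of the stalk (Rplp0 and Rplp2). The other 4 are Rpl22l1, Rpl7l1 and Rps27l, paralogues of standard proteins, and Rps19bp1, which met the rule by its name but encodes a protein that binds Rps19. The 5 that were not tested never reached the filter in 2 arrays: Rpl37 peaked at 22.2, Rps16 at 23.1, Rpl3l at 46.1, Rps4l at 58.8 and Rpl39l at 75.6. Rpl37 and Rps16 encode standard subunits, and a low reading cannot tell a poor probe set from a scarce transcript. The same limit holds for Rps27, which lay just inside the threshold. It read 92.6 and 90.3 in stage 1 NKT, 82.5, 89.0 and 71.4 in Luxoid NKT and 80.4 and 106 in CD4SP. Of 79 standard ribosomal protein genes, 35 had no probe set with a single symbol, 27 of them because their probe sets list several genes. These were not analysed here.

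The start-site windows of the members that the results turn on are printed here because the TOP tract lies at the first transcribed bases. Each line gives 15 bases before the RefSeq start and 15 from it (GRCm38.p6), 5′ to 3′ on the gene's strand, and capitals mark the longest run of C and T found between 20 bases before and 30 after the start, as far as it falls in the window. Where runs tie in length, the first is marked. The marked run spans the start in Rpl14, Rpl7a and Rps6, begins just after it in Rpl12 and Rpl22l1, and lies wholly before it in Rpl22, Rps19 and Rps27l. In Rpl22 another run of 5 bases, equal in length, lies after the start. In Rps19 another run of 4 bases lies before it.
Rpl12 (chr2:32961697-32961726, plus strand): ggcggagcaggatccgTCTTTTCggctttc
Rpl14 (chr9:120571502-120571531, plus strand): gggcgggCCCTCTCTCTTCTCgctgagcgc
Rpl22 (chr4:152324421-152324450, plus strand): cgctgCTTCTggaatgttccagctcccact
Rpl22l1 (chr3:28805493-28805522, plus strand): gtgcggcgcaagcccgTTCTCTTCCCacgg
Rpl7a (chr2:26910792-26910821, plus strand): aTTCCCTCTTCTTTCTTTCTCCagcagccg
Rps6 (chr4:86857353-86857382, minus strand): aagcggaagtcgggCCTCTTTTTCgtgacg
Rps19 (chr7:24884577-24884606, plus strand): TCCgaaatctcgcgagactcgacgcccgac
Rps27l (chr9:66946071-66946100, plus strand): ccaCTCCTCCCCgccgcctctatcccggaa

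The members differ in this feature: Rpl7a carries the longest run of the members with a window, 21 bases, and Rps19 a run of 4 bases. The start taken is that of RefSeq, so a short run does not show that a messenger RNA lacks the tract. In Rpl11 a run of 17 bases begins at base 14 from that start. RefSeq windows were at hand for 44 of the 50 members, on 15 chromosomes. A run of 8 or more C or T on the gene's strand, between 20 bases before and 30 bases after the start, was present in 21 of the 44 (47.7%), against 18.2% of 17492 protein-coding genes. In the longer window (250 bases before to 50 after, both strands), CCGGAAG, a core bound by ETS-family factors, was present in 47.7% of members and 11.9% of all promoters. GGGCGG stood in 56.8% against 46.3%, AAGATGGC in 9.09% against 3.21%, TATAAA in 13.6% against 13.3% and CACGTG in 6.82% against 7.91%. These are matches of letters in a window, not binding sites, and CCGGAAG and AAGATGGC can share their AAG.

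Values are robust multi-array average (RMA) intensities on a linear scale, ranging from 3.08 to 20875, and differences are given as log2 with the standard error (SE) of the fit. Array medians lay between 79.6 and 83.7, and arrays of a group correlated at 0.972 to 0.984 over the genes tested. Summed over 6 NKT markers, intensity was 14238 to 14605 in stage 1 NKT, 11757 to 12873 in Luxoid NKT and 6967 to 6985 in CD4SP, and all 6 passed the filter. The sum covers unlike members: Slamf1 was lower in stage 1 NKT than in CD4SP (-2.12 ± 0.20, adjusted p = 0.000253), and between the NKT groups Il4 (-1.19) and Icos (-1.11) were lower in Luxoid NKT, while Egr2 (0.82, adjusted p = 0.0617) and Slamf6 (0.22) had differences above 0 that did not pass. Zbtb16 itself read 2751 and 3488, then 1857, 2774 and 2645, then 87.3 and 61.8; its other 2 probe sets were lower in every Luxoid array, with 1263 and 1580 against 621, 918 and 806, and 728 and 745 against 396, 472 and 444. The message is still made in Luxoid cells, so its level does not check the mutation. Markers of double-positive thymocytes (2 of 5 above the filter) summed to 148 to 153 in stage 1 NKT, 171 to 289 in Luxoid NKT and 798 to 856 in CD4SP, and CD8 lineage markers (3 of 3) to 408 to 468, 614 to 750 and 940 to 955. B cell markers (3 of 5 listed passed) summed to 729 to 820, 501 to 641 and 839 to 898, myeloid markers (1 of 5) to 1258 to 1533, 960 to 1342 and 973 to 1091, and thymic epithelial markers (2 of 5) to 342 to 401, 407 to 516 and 427 to 512. CD4 T cell markers (4 of 6 listed passed) summed to 8139 to 9428 in stage 1 NKT, 8779 to 10036 in Luxoid NKT and 15741 to 17735 in CD4SP. None of the 4 erythroid markers passed the filter. The double-positive, CD8 lineage and B cell sums cover unlike members as well. Dntt (461 and 527) and Cd24a (246 and 239) make up most of the double-positive sum in CD4SP, while Rag1, Rag2 and Ptcra did not pass the filter. Cd8a was higher in Luxoid NKT than in stage 1 NKT (limma, 0.86 ± 0.16, adjusted p = 0.0342). Cd8b1 (0.24) and Runx3 (0.55) did not pass that test. Against CD4SP, stage 1 NKT had higher Cd79b (1.69, adjusted p = 0.00548) and lower Cd79a (-0.82, adjusted p = 0.0408). Ighm (-0.38) did not pass there. The part of these markers in the results was not tested. Stage 1 NKT array 2 and Luxoid array 3 carry Xist and the Y-linked Kdm5d together, so those pools held both sexes. Replicate 1 of each group carries Xist with Kdm5d no higher than 11.7, the pattern of female pools. CD4SP array 2 (Xist 29.0) and Luxoid array 2 (Xist 36.1) carry Kdm5d without comparable Xist, the pattern of male pools. The replicate numbers thus go with the sex of the pools only in part. Number 1 has the female pattern in every group, while number 2 is mixed in stage 1 NKT and has the male pattern in the others. The 2 CD4SP arrays differ in sex. The part of sex in the results was not tested.

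Across the 7 arrays the members sat high: their median intensity was 9869 and 9544 in stage 1 NKT, 9064, 8672 and 7531 in Luxoid NKT and 9124 and 9764 in CD4SP. Every Luxoid array lay below every array of the other groups by this measure, with Luxoid array 3 the lowest. The 45 genes took 4.06% and 4.11% of summed intensity over the tested genes in stage 1 NKT, 3.84%, 3.78% and 3.62% in Luxoid NKT, and 4.05% and 4.38% in CD4SP. Luxoid NKT had the lowest group mean for 35 of the 45 genes, CD4SP for 6 and stage 1 NKT for 4. These shares are of array signal after normalization, so fewer cells that express a gene and less RNA per cell cannot be told apart, and the amount of ribosome per cell was not measured. Luxoid array 3 was the lowest of all 7 arrays for 24 members, so the count of members without overlap between the NKT groups is given without it as well. Counts of members below 0 with 1 array left out are given at the end. The counts of lowest group means, and those without overlap against CD4SP, include Luxoid array 3.

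**Figure D1:**
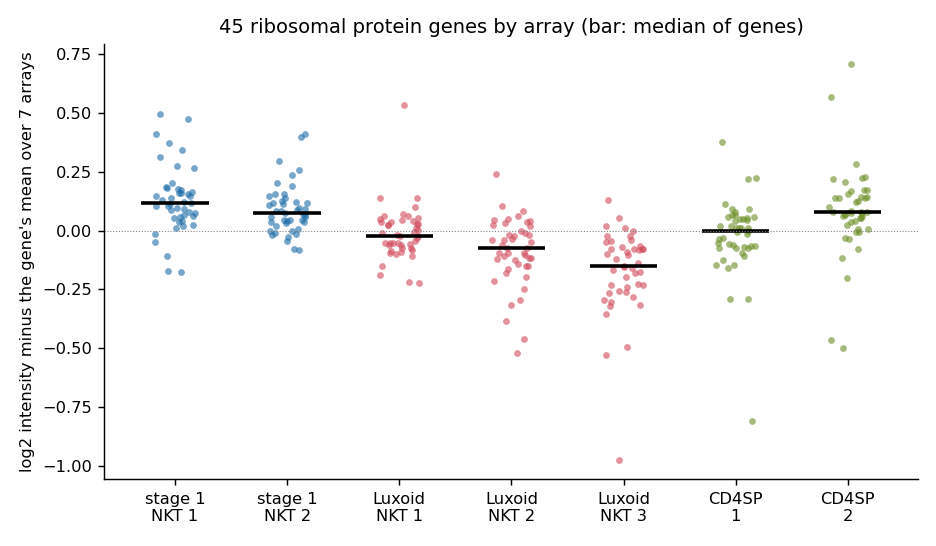
Deviation of each tested ribosomal protein gene from its own mean over the 7 arrays (log2, vertical axis), by array and group (horizontal axis). The member medians are 0.12 and 0.08 in stage 1 NKT, -0.02, -0.08 and -0.15 in Luxoid NKT and close to 0 and at 0.08 in CD4SP.

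The first contrast, Luxoid NKT against stage 1 NKT, sets the same sorted population with and without PLZF side by side. No ribosomal protein gene passed the test (0 of 45, against 1.55% of all genes, or 0.901% counting higher and 0.653% counting lower calls alone; limma, Benjamini-Hochberg adjusted p under 0.05 over all 10874 genes), and 4 of the 45 (8.89%) had an unadjusted p under 0.05, against 11.6% of all genes. The differences were small and mostly to 1 side. The difference was below 0 for 41 of 45 members, against 56% of all genes, with a median of -0.18 for members and -0.03 for all genes. All 3 Luxoid arrays read below both stage 1 NKT arrays for 30 of 45 members (66.7%), against 16.6% of all genes, and for 0 members did they all read above, against 10.1%. Without Luxoid array 3 the count was again 30 of 45, against 21.1% of all genes, and without both mixed-sex pools it was 36 of 45, against 38.7%.

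Large-subunit genes had a median difference of -0.24, with 18 of 19 below 0. Rpl14 had the largest difference of the 45: it read 997 and 944 in stage 1 NKT and 613, 549 and 642 in Luxoid NKT. The groups did not overlap, and the difference was -0.69 ± 0.14 (SE; adjusted p = 0.0593), which misses the threshold. With all probe sets of each gene averaged, Rpl14 passed (adjusted p = 0.0274), the 1 member to do so in this contrast under any alternative. Rpl14 has 1 probe set with a single symbol, so its own values stayed the same there and only other genes changed. Rpl12, whose protein lies at the base of the stalk, read 786 and 836 against 623, 494 and 591, again without overlap (-0.52 ± 0.15, adjusted p = 0.191). Rpl39, a small protein of the exit tunnel, read 320 and 362 against 288, 220 and 272, a difference of -0.40 ± 0.16 (adjusted p = 0.377). Rpl41, the brightest member and a very short protein, read 17927 and 18442 against 16013, 17005 and 16219 (-0.15).

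Rpl22 and its paralogue Rpl22l1 both lay lower in every Luxoid array. Rpl22 read 9869 and 10186 in stage 1 NKT and 8530, 8104 and 7408 in Luxoid NKT, with a difference of -0.33 ± 0.15 (adjusted p = 0.472). Rpl22l1 read 2760 and 2940 against 2061, 2300 and 1700, with a difference of -0.51 ± 0.25 (adjusted p = 0.489). Neither passed the test. Rpl11, which binds Mdm2 when ribosome assembly fails, read 9698 and 9033 against 8534, 7984 and 7573 (-0.22 ± 0.13, adjusted p = 0.595).

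Small-subunit genes had a median difference of -0.11, with 17 of 20 below 0. Rps19, the gene most often mutated in Diamond-Blackfan anaemia, read 5549 and 5067 in stage 1 NKT and 4579, 3700 and 3191 in Luxoid NKT. The Luxoid values spread by more than the gap between groups, and the difference was -0.49 ± 0.17 (adjusted p = 0.309). Rps25 read 671 and 695 against 569, 655 and 310, so that Luxoid array 3 alone sets most of its -0.49 ± 0.33 (adjusted p = 0.648); without that array the difference was -0.16. Rps6, the substrate of the S6 kinases, read 1266 and 1088 against 1003, 929 and 927 (-0.30 ± 0.14, adjusted p = 0.459).

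Only 4 members had a difference above 0, all of them abundant. Rps9 read 9089 and 10117 in stage 1 NKT and 9805, 10688 and 11198 in Luxoid NKT, overlapping groups with a difference of 0.14 ± 0.13 (adjusted p = 0.782). The differences of Rps29, Rps20 and Rpl13a were 0.06, 0.04 and 0.03. These directions depend on the probe set: averaged over all probe sets of the gene, the 4 differences became -0.07 for Rps9, -0.09 for Rps29, -0.02 for Rps20 and -0.11 for Rpl13a. In the stalk, Rplp0 read 10410 and 9544 against 9984, 8935 and 9353, a difference of -0.08 with a 95% interval of -0.38 to 0.22, and Rplp2 16199 and 16596 against 14348, 15213 and 13854 (-0.18 ± 0.14). Rpsa, which also serves as a laminin receptor, read 16555 and 16894 against 15238, 16344 and 16356 (-0.07).

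**Figure D2:**
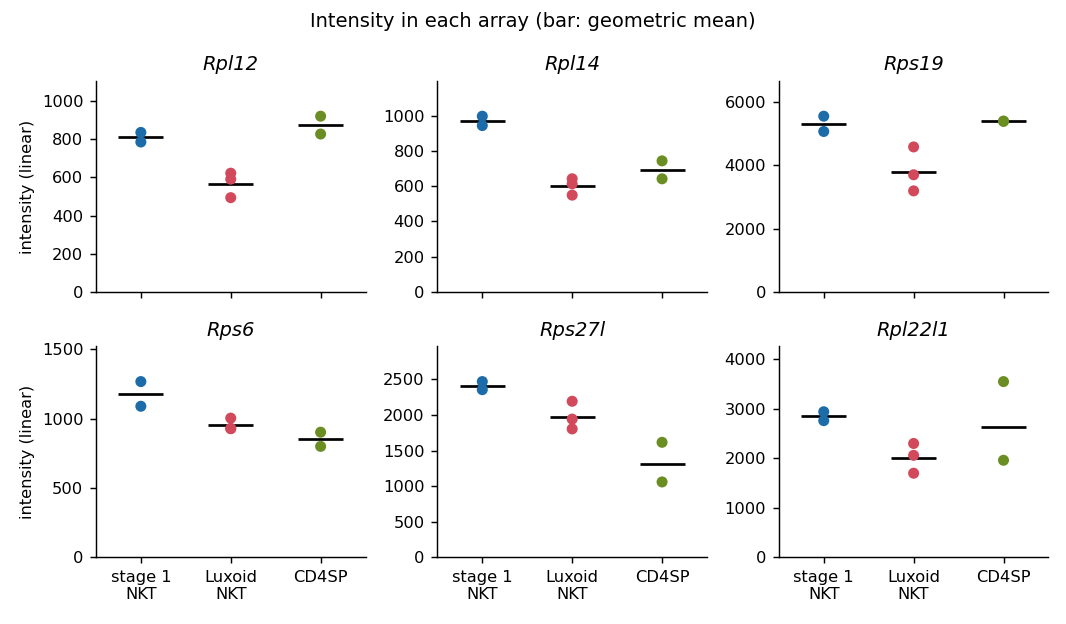
Intensity (linear RMA scale, vertical axis) of 6 members in each array, by group, with the group's geometric mean as a bar. Rpl14 sits between 549 and 642 in Luxoid NKT, below both stage 1 NKT arrays at 997 and 944, and Rps27l sits above 2300 in stage 1 NKT and at 1059 and 1616 in CD4SP.

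The size of the difference went with intensity, which is that of the probe set and need not follow the level of the transcript. The 18 members at 10000 or more had a median difference of -0.08, with 14 below 0; the 16 between 5000 and 10000 had -0.24, with 16 below 0; and the 11 under 5000 had -0.40, with 11 below 0. Other genes as bright did not share this direction: of 26 at 10000 or more, 3 were below 0 (median 0.09), and of 179 between 5000 and 10000, 73 were below 0 (median 0.03). Other genes under 5000 were not set beside the 11 members there, which include Rpl22l1, Rpl7l1, Rps27l and Rps19bp1. Whether members and the other genes differ was not tested. The confidence intervals bound the changes, since 42 of 45 members had a 95% interval inside 2-fold in either direction, and the median SE was 0.14 for members and 0.17 for all genes.

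**Figure D3:**
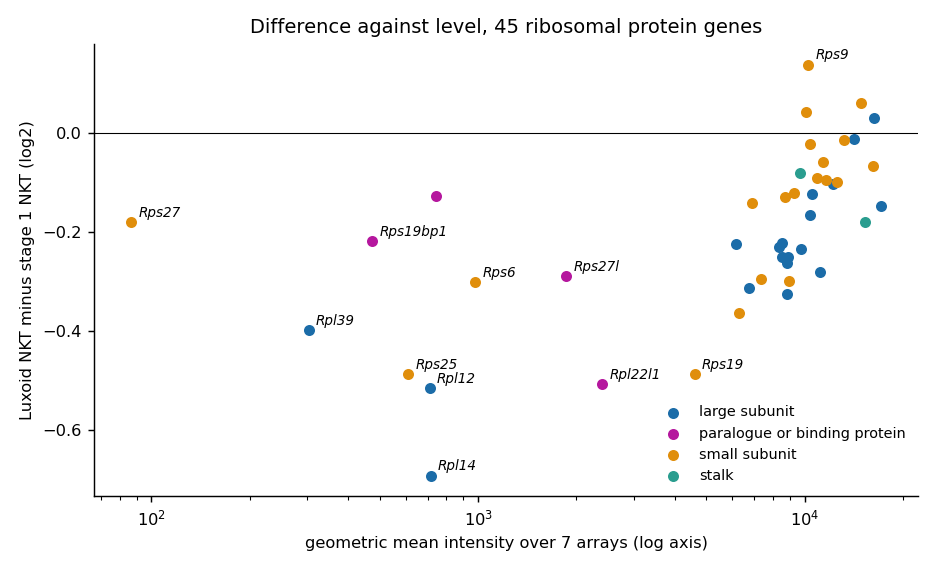
Difference between Luxoid NKT and stage 1 NKT (log2, vertical axis) against geometric mean intensity over the 7 arrays (log scale, horizontal axis), for the 45 tested ribosomal protein genes, coloured by subunit. The members at 10000 or more centre on -0.08, and those under 5000 on -0.40.

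Of 94 member probe sets above the filter, 87 had a difference below 0 (median -0.19) and 0 passed, against 1.15% of 20360 probe sets. These 94 include the 45 already described; of the 49 others, on 22 genes, 46 had a difference below 0. Among 22 genes with 2 or more such probe sets, 7 had some that pointed in opposite directions: Rpl13a, Rpl7l1, Rps20, Rps28, Rps29, Rps4x and Rps9. Probe sets whose names mark cross-hybridization to other sequences (_x_at) had a median of -0.13, with 33 of 38 below 0, and plain _at probe sets -0.25, with 24 of 25 below 0. Probe sets of a gene share its transcripts and are not replicates. Grouped by the start-site feature, the 21 tested members with a run of 8 or more C or T had a median of -0.25, with 19 below 0, and the 19 with a shorter run -0.15, with 19 below 0.

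The second contrast, stage 1 NKT against CD4SP, sets the early NKT cell beside the conventional lineage. It shares its stage 1 NKT arrays with the first contrast. Rps27l, a paralogue of Rps27 whose gene is a target of p53, was higher in stage 1 NKT, and it was the 1 member of 45 that passed the test (2.22%, against 14.9% of all genes, or 10.8% counting higher calls alone). It read 2355 and 2468 in stage 1 NKT, 1942, 2192 and 1804 in Luxoid NKT and 1059 and 1616 in CD4SP, so no array of either NKT group reached down to CD4SP. The difference was 0.88 ± 0.21 (adjusted p = 0.0254), and its 3 probe sets, tested singly, gave 0.88, 0.85 and 0.89, each past the threshold. The call was lost without stage 1 NKT array 1 (adjusted p = 0.118), stage 1 NKT array 2 (0.124) or CD4SP array 1 (0.131, when the difference was 0.58). It was also lost without both mixed-sex pools (0.165) and with arrays centred on genes outside the lists (0.0645).

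By the probe set of highest mean, the other members lay near 0 in this contrast. Among 22 genes with 2 or more probe sets above the filter, 11 had some that pointed in opposite directions. Of the 49 probe sets not of highest mean, 21 were below 0. Some of these lay further from 0, such as 0.65 for Rps3 and -0.39 for Rps4x, and neither of these passed. The median difference was 0.04 for members and 0.06 for all genes, and 38 of 45 members lay within 0.2 of 0, against 39.0% of all genes. All 41 standard subunits missed the threshold in this fit, though Rpl14 and Rps6 passed under some alternatives given below. No member was called lower, against 4.08% of all genes. Below 0 were 14 of 45, against 43.8% of all genes; this side depends on the scaling, since 38 of 45 were below 0 with each array centred on the median of genes outside all lists, which moves the median of all genes from 0.06 to -0.12. Stage 1 NKT read above CD4SP in every array for 9 members (20%, against 36.6% of all genes) and below for 3 (6.67%, against 23.6%).

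Beside Rps27l, the largest differences above 0 were in genes of low intensity. Rps19bp1 read 668 and 470 in stage 1 NKT and 442 and 343 in CD4SP (0.53 ± 0.21, adjusted p = 0.133), and its stage 1 NKT arrays differed from each other by about as much as the groups did. With 1 array left out its difference ranged from 0.27 (without stage 1 NKT array 1) to 0.78 (without stage 1 NKT array 2). Rpl14 read 642 and 744 in CD4SP, below its 997 and 944 in stage 1 NKT (0.49 ± 0.15, adjusted p = 0.0694; 0.0436 with probe sets averaged and 0.0463 with array weights). Rps6 read 799 and 902 in CD4SP, below 1266 and 1088 (0.47 ± 0.15, adjusted p = 0.0774; 0.0307 with probe sets averaged). Neither pair of groups overlapped, and neither passed in the fit reported here. Averaging left the values of Rpl14, which has 1 probe set, as they were. For Rps6 it added a probe set that did not pass the filter. That probe set read 59.4 and 95.2 in stage 1 NKT and 52.8 and 40.5 in CD4SP.

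Rpl7l1 read 987 and 704 in stage 1 NKT, 1076, 605 and 683 in Luxoid NKT and 769 and 526 in CD4SP, with overlap between all groups (0.39 ± 0.31, adjusted p = 0.440). That difference ranged from 0.12 (without CD4SP array 2) to 0.66 (without CD4SP array 1). Rpl7a, a large-subunit protein, gave 0.21 ± 0.17 (adjusted p = 0.472). By the probe set of highest mean, the largest differences below 0 were -0.17 ± 0.16 for Rps20 (adjusted p = 0.513), -0.16 for Rps25, -0.12 for Rps9, -0.11 for Rpl12 and -0.09 for Rps29. For Rps25 the direction turned to 0.23 without CD4SP array 2, in which it read 997 against 583 in the other CD4SP array. Rps19 (-0.02), Rplp0 (0.03), Rplp2 (0.09), Rpsa (0.08) and Rpl11 (0.14) were all within 0.2 of 0.

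The third contrast, Luxoid NKT against CD4SP, shares its arrays with both others. Rpl12 was lower in Luxoid NKT and was the 1 member of 45 that passed (2.22%, against 16.8% of all genes, or 5.51% counting lower calls alone). It read 623, 494 and 591 in Luxoid NKT against 921 and 828 in CD4SP, with no overlap, and the difference was -0.62 ± 0.15 (adjusted p = 0.0235). The call was lost without CD4SP array 1 (adjusted p = 0.146) or CD4SP array 2 (0.0827). Rpl12 has 1 probe set with a single symbol, so no other probe set tests it.

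Below 0 were 38 of 45 members, against 47.6% of all genes, with a median of -0.11 for members and 0.02 for all genes. Every Luxoid array read below both CD4SP arrays for 13 members (28.9%, against 20.6% of all genes) and above for 4 (8.89%, against 25.4%). Rps19 read 4579, 3700 and 3191 against 5386 and 5395, a difference of -0.51 ± 0.17 (adjusted p = 0.0781). Rpl39 gave -0.41 ± 0.16 (adjusted p = 0.122) and Rps7 -0.28 ± 0.15 (adjusted p = 0.269). Rps25 (-0.65 ± 0.33, adjusted p = 0.235) and Rpl22l1 (-0.40 ± 0.25, adjusted p = 0.328) lean on CD4SP array 2. It read 997 for Rps25 and 3549 for Rpl22l1, against 583 and 1961 in CD4SP array 1. Without it Rpl22l1 moved to 0.03 and Rps25 to -0.26. For Rps25, Luxoid array 3 stood apart as well, at 310 against 569 and 655. CD4SP array 2 has the pattern of a male pool, and the part of sex was not tested.

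Above 0 were 7 members, against 52.4% of all genes, led by Rps27l at 0.59 ± 0.19 (adjusted p = 0.0720), which rests on the spread of the CD4SP arrays: it was 0.90 (adjusted p = 0.0305) without CD4SP array 2 and 0.29 (adjusted p = 0.400) without CD4SP array 1. Rps19bp1 gave 0.31 ± 0.19 (adjusted p = 0.325), and 0.49 or 0.12 without CD4SP array 1 or 2. Next came Rpl7l1 at 0.26 ± 0.28, Rps6 at 0.17 ± 0.14 (adjusted p = 0.478) and Rpl38 at 0.08 ± 0.13. Rpl38 turned to -0.05 with arrays centred on genes outside the lists, and Rpl7l1 to -0.01 without CD4SP array 2.

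Within groups, the median standard deviation between replicate arrays was 0.062 for members in stage 1 NKT (0.128 for all genes), 0.102 in Luxoid NKT (0.180) and 0.082 in CD4SP (0.130). The least even were Rps19bp1 in stage 1 NKT (0.357), Rps25 in Luxoid NKT (0.572) and Rpl22l1 in CD4SP (0.605). CD4SP array 2 read above CD4SP array 1 for 32 of 45 members, against 46.7% of all genes, and Luxoid array 1 read above Luxoid array 3 for 37, against 54.0%.

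Fau, which encodes a small-subunit protein fused to a ubiquitin-like domain and falls outside the symbol rule, read 7701 and 7469 in stage 1 NKT, 7489, 6934 and 5992 in Luxoid NKT and 7745 and 7742 in CD4SP. It passed no test (-0.16 ± 0.14 between the NKT groups, adjusted p = 0.751).

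Among other genes that build and use the ribosome, counts of calls between stage 1 NKT and CD4SP are to be read against the 10.8% of all genes called higher and 4.08% called lower. Of 29 ribosome biogenesis genes, 7 (24.1%) were higher in stage 1 NKT and 0 lower, with a median of 0.38. They include Grwd1, a nucleolar assembly factor (0.85 ± 0.24, adjusted p = 0.0482), Ltv1, which helps mature the small subunit (0.70 ± 0.16, adjusted p = 0.0229), Nhp2 of the box H/ACA particle (0.68 ± 0.16, adjusted p = 0.0266) and Nolc1, a nucleolar phosphoprotein (0.68 ± 0.18, adjusted p = 0.0372). Of 76 mitochondrial ribosomal protein genes, 12 (15.8%) were higher and 0 lower, with a median of 0.40. Of those called, Mrps28 had the largest difference (1.05 ± 0.15, adjusted p = 0.00258), then Mrps10 (0.94), Mrps36 (0.92) and Mrpl12 (0.80).

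Of 31 initiation factors, 2 (6.45%, under the share of all genes) were higher (Eif2b3 at 0.79 and Eif1a at 0.76) with a median of 0.20, and of 11 elongation and release factors Eef1e1, which also sits in the tRNA synthetase complex, was the 1 called (1.09 ± 0.17, adjusted p = 0.00440). Among 18 genes of the mTORC1 and S6 kinase pathway, Rheb, the activator of mTORC1, was higher (0.78) and Sesn1, an inhibitor, lower (-0.80). Among 14 genes of the Myc network and other regulators, Mxd1 (-1.48 ± 0.19, adjusted p = 0.00168) and Mxd4 (-1.06 ± 0.16, adjusted p = 0.00357), which compete with Myc for Max, were lower in stage 1 NKT. Myc itself read 1801 and 1935 in stage 1 NKT, 1540, 1881 and 1262 in Luxoid NKT and 2160 and 1849 in CD4SP, overlapping groups. Neither 11 nascent chain genes nor 7 p53 pathway genes had a call in any contrast. Of 17 cell cycle genes, 16 were higher in stage 1 NKT than in CD4SP (median 1.08) and 16 in Luxoid NKT than in CD4SP (median 1.13). The part of the cell cycle difference in these lists was not tested.

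Between Luxoid NKT and stage 1 NKT no gene of these lists passed the test, against 1.55% of all genes, the same as for the ribosomal protein genes. Medians were -0.30 for ribosome biogenesis, -0.30 for mitochondrial ribosomal proteins, -0.11 for initiation factors, -0.06 for elongation factors, -0.02 for the mTORC1 genes and 0.09 for the cell cycle genes, beside -0.18 for the cytosolic ribosomal proteins and -0.03 for all genes. Against CD4SP, Luxoid NKT had 1 biogenesis gene called higher of 29 (3.45%; Nhp2, 0.56 ± 0.15, adjusted p = 0.0368) and 2 mitochondrial ribosomal protein genes of 76 (2.63%), Mrpl27 and Mrpl40, both at 0.49. Both shares are below the 11.3% of all genes called higher in that contrast. Mxd1 (-0.83) and Mxd4 (-0.79), of 14 genes (14.3%), were lower there too, as was Sesn1 (-0.69), of 18 mTORC1 genes (5.56%), against 5.51% of all genes. Higher were Castor1 (0.52), 1 of 18 mTORC1 genes (5.56%), and Eif1a (0.62) and Eif3b (0.82), 2 of 31 initiation factors (6.45%). These shares of higher calls are also below 11.3%. No test compared one list with another.

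**Figure D4:**
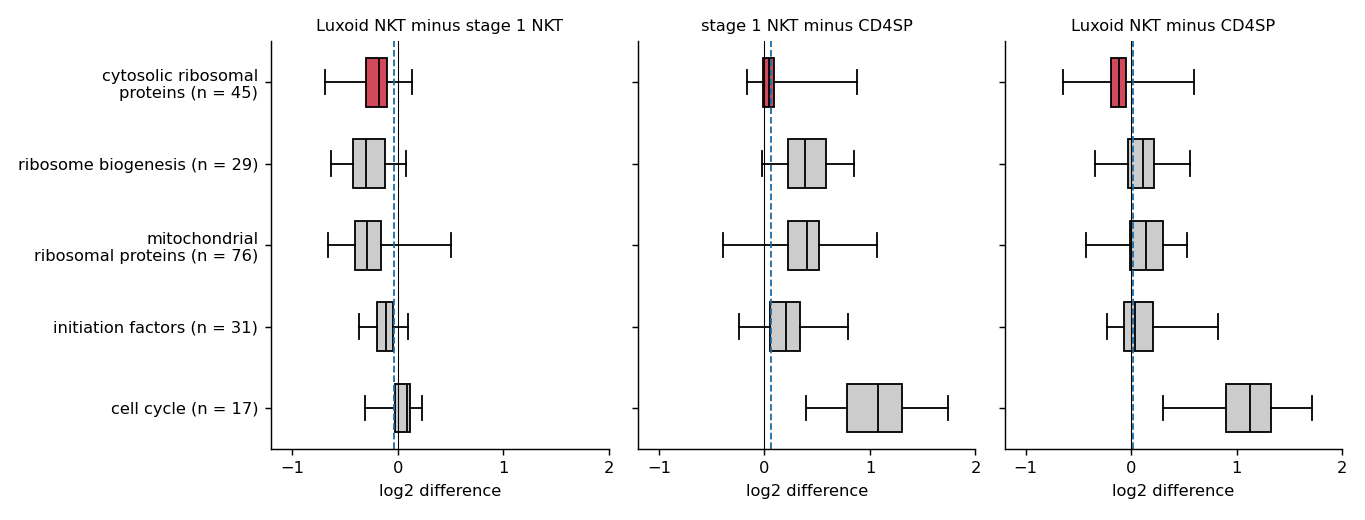
Differences (log2, horizontal axis) of the cytosolic ribosomal protein genes and 4 other gene lists in the 3 contrasts; boxes span the quartiles with the median as a line, whiskers reach the lowest and highest gene, and the dashed line is the median of all tested genes. The cytosolic ribosomal protein genes stand at -0.18, 0.04 and -0.11, and the mitochondrial ribosomal protein genes at -0.30, 0.40 and 0.14.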

How the data were processed

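RNA of sorted, pooled thymocytes was amplified, labelled with biotin and hybridized to 7 Affymetrix arrays. The deposited values are intensities made by the authors with RMA in Affymetrix Expression Console, per the submitters' processing notes; no versions are given in the sources used here. They are linear, so log2 was taken first. Probe sets were named from the platform annotation: of 45037, 34945 had 1 symbol, 932 several and 9160 none listed, and 34741 matched RefSeq (GRCm38.p6) by gene ID. Promoter windows are from RefSeq.

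limma 3.58.1 (R 4.3.3) fitted a mean per group over all 7 arrays (4 residual degrees of freedom, prior 4.49), two-sided, with Benjamini-Hochberg adjustment over 10874 genes, and was checked on simulated data. The number of arrays limits the precision. The labels call replicates biological, but which animals were pooled is not stated. RMA equalizes the arrays, so a change shared by most genes is lost, and differences of very bright probe sets can be compressed.

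Members and lists were chosen with earlier results of these data known. Genes named are those past the threshold, the 5 largest differences in each direction, paralogues, members of known function, and up to 4 called genes of each other list. Alternatives changed normalization, filter, probe set, variance model, samples and block. Testing each probe set singly, and the counts of members without overlap with arrays left out, were chosen after seeing the data.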

Additional observations from a re-analysis of the deposited data

How the results depend on the processing

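Of 31 results for single genes, 22 kept their direction in every setting. Averaging all probe sets turned Rps9 (-0.066), Rps29 (-0.087), Rps20 (-0.025) and Rpl13a (-0.11) between the NKT groups and Rps6 between Luxoid NKT and CD4SP (-0.0018). It also called Rpl14 between the NKT groups (1 member lower, adjusted p = 0.0274) and 3 members higher in stage 1 NKT than in CD4SP. The values of Rpl14, with 1 probe set, did not change, and the probe set added for Rps6 did not pass the filter. With plain _at probe sets, Rps9 became -0.084 and Rps20 -0.064. Rps27l has no plain _at probe set and was not tested there, and 0 members were higher in stage 1 NKT than in CD4SP. Centring arrays on genes outside the lists gave member medians of -0.14 (stage 1 NKT against CD4SP, with 0 members higher) and -0.24 (Luxoid NKT against CD4SP, with 3 members lower: Rpl12, Rps19 and Rpl39), turned Rpl38 to -0.052 and ended the Rps27l call (adjusted p = 0.0645). Array weights gave 2 members higher in stage 1 NKT than in CD4SP. A variance trend gave 1 member higher and 2 lower in Luxoid NKT than in CD4SP.

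Without both mixed-sex pools, calls over all genes fell to 10, 520 and 918 in the 3 contrasts; 0 members were higher in stage 1 NKT than in CD4SP (Rps27l adjusted p = 0.165) and 0 lower in Luxoid NKT than in CD4SP (Rpl12 adjusted p = 0.0963). The cause of these changes was not tested. Leaving out 1 array gave 55 to 178, 643 to 1846 and 866 to 1726 calls over all genes. It gave member medians of -0.24 to -0.15, -0.01 to 0.09 and -0.15 to -0.07. Members called higher numbered 0 to 0, 0 to 1 and 0 to 1, and members called lower 0 to 0, 0 to 0 and 0 to 2. Between the NKT groups, all-gene calls were 64 and 55 without stage 1 NKT array 1 or 2 and 103 without Luxoid array 3. With 1 array left out, Rps20 between the NKT groups ranged from -0.066 (without stage 1 NKT array 1) to 0.15 (without array 2), and was -0.011 without Luxoid array 2. Without CD4SP array 1 or 2, Rps25 was -0.55 or 0.23 (stage 1 NKT against CD4SP), and Rpl22l1 was -0.82 or 0.032 and Rpl7l1 0.54 or -0.011 (Luxoid NKT against CD4SP).

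Replicate numbers are shared by the groups, but the labels do not say what they mark, and a contrast has 2 pairs. In the data they go with the sex of the pools only in part, since number 2 is mixed in stage 1 NKT and male in the others. Deviations of same-numbered arrays correlated at 0.33 to 0.49, and each array with a partner correlated best with its own number, a hint from the data and not from the design. In a group of 2 arrays the deviations mirror each other, so these matches are not independent of one another. With the replicate number as a block, calls over all genes were 170, 2616 and 2299, of which 133, 1618 and 1738 were shared with the fit without it. Under the block, 3 members were higher in stage 1 NKT than in CD4SP (Rps27l, Rpl14 and Rps19bp1) and 1 higher in Luxoid NKT than in CD4SP (Rps27l).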
